A study of Saccharomyces cerevisiae with 23 samples.

Results

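The mitochondrial ribosomal proteins are described here through 65 nuclear genes of budding yeast, followed over a synchronised meiosis. A gene is a member when its name in the deposited tables is MRP, MRPL, MRPS or RSM followed by a number, with MRP8 left out, and 65 of the 6867 named genes used met this rule. All 65 matched the RefSeq annotation at the same position, which puts 37 in the large subunit and 27 in the small subunit. The remaining member, RSM22, is called a tRNA methyltransferase there. Family names shared with bacterial ribosomes were given to 40 members and mitochondria-specific family names to 24. All 65 passed the filter for testing, a mean of at least 1 FPKM over the libraries. The rule uses names only and no measured value.

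Every library came from 1 strain, A 33606, which carries IME1 and IME4 behind the copper-responsive CUP1 promoter (pCUP1-IME1 pCUP1-IME4). IME1 encodes the transcription factor that starts the meiotic programme, and IME4 encodes the enzyme that methylates adenosines in meiotic mRNAs. Cultures were grown in YPD and then BYTA medium and moved to SPO (sporulation) medium at 0 h, and copper sulphate, which induces both genes, was added at 2 h. The induction is visible in the tables: IME1 stood at 9734 FPKM at 2.5 h, against 818 FPKM at 2 h, and IME4 at 2950 FPKM, against 89.7 FPKM. Total RNA was sequenced at 23 times with 1 library each. After 0 h the times were taken as windows of 5 libraries (2-3 h), 6 libraries (3.25-4.5 h), 6 libraries (4.75-6 h) and 5 libraries (6.5-10 h). A window holds consecutive libraries of what the labels present as 1 course, not replicates of a condition, so a p-value here sets a difference against the scatter of neighbouring times, which may be technical.

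The mitochondrial ribosome makes the few membrane proteins encoded in mitochondrial DNA, which are core subunits of the respiratory chain and the ATP synthase. Its ribosomal RNAs come from the mitochondrial genome, while its proteins, apart from the small-subunit protein VAR1, are encoded in the nucleus, translated in the cytosol and imported, so that the nucleus and the organelle both supply the particle. In growing yeast, many mRNAs for mitochondrial proteins are bound behind the stop codon by Puf3, a Pumilio-family RNA-binding protein known for its roles in their decay, translation and localisation, and respiration is needed for cells to enter meiosis.

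Puf3 recognises the letters TGTANATA, where N is any base. These letters stood on the sense strand in the 250 bases after the stop codon of 64 of the 65 members (98.5%), beside 910 of 6001 annotated genes (15.2%). A second reading of the genome over 6027 genes gave the same 64 members and 15.1% of all genes. In it the letters stood on the opposite strand of the same windows for 13 members (20%) and 14.5% of all genes, and before the start codon for 6 members (9.23%) and 6.77% of all genes. The member without a match was RSM22, the one that RefSeq does not class as a ribosomal protein. The sites are shown for the 4 members with the largest later increase and 4 with the largest later decrease that held on both scales used below, with the 8 matched letters in capitals and the RefSeq R64 coordinates of each stretch.

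MRPS17, chrXIII:636217-636246, minus strand: gcactacactcTGTAAATAtatacaactac
MRPL37, chrII:741638-741667, plus strand: tttggtatcctTGTAAATAaatatgtgtgt
MRP49, chrXI:133678-133707, minus strand: aagtttgttcaTGTATATAtcaaaaaacat
MRPL20, chrXI:599049-599078, minus strand: aataacaatcgTGTAAATActactctataa
MRPL44, chrXIII:720854-720883, minus strand: acaagcaagccTGTAAATAatatatatgca
MRPL23, chrXV:612535-612564, plus strand: tcttcaatccaTGTATATAtttatctgtta
MRP7, chrXIV:621243-621272, minus strand: ttaagaatgccTGTAAATAttactattttg
MRP21, chrII:49401-49430, plus strand: atttccgtcttTGTAAATAggtaatgcgta

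The 64 members held 80 such matches, 50 members with 1, 12 with 2 and 2 with 3. The first match began 8 to 139 bases after the stop codon, with a median of 51, and within 100 bases in 60 members. The form TGTAAATA made up 36 of the 80 matches, TGTATATA 25, TGTACATA 18 and TGTAGATA 1. A C lay 2 bases before a match in 51 members (78.5%) and in 4.45% of all genes; this longer form was searched after the sequences had been seen. The letters also stood behind all 13 mitoribosomal genes outside the naming rule and all 12 mitochondrial aminoacyl-tRNA synthetase genes listed. They stood behind only 4 of 29 nuclear genes of the respiratory chain and ATP synthase (13.8%) and 8 of 138 cytosolic ribosomal protein genes (5.8%). A match is a description of the letters, and no binding was measured.

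**Figure D1:**
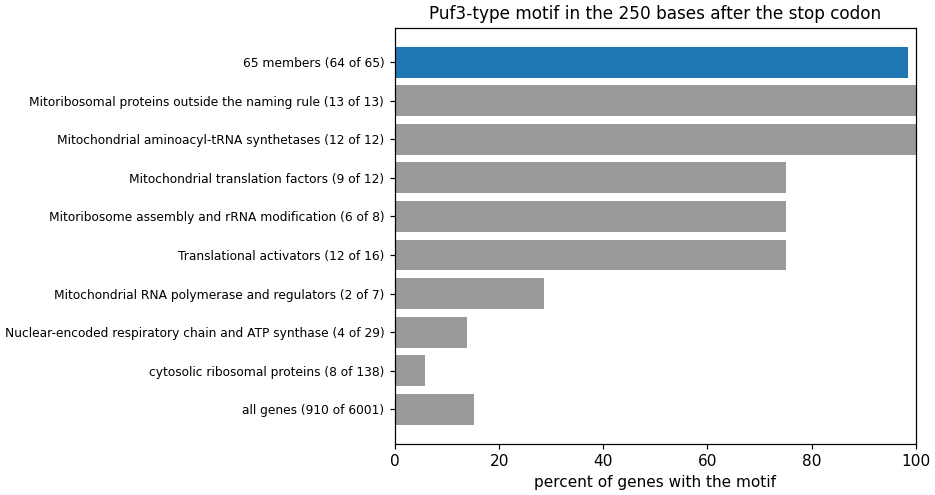
Share of genes with the Puf3-type motif on the sense strand in the 250 bases after the stop codon, in percent on the horizontal axis, for the 65 members, other gene lists and all annotated genes, with the counts beside each name. The bar of the members reaches 98.5%, and that of all genes 15.2%.

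The members were mostly expressed at moderate levels, and a few of them stood far above the rest. FPKM is a fragment density per length, but the deposited values were not in proportion to fragments per base. MRPL39 (213 bases) had a mean of 39.8 FPKM, with 108 fragments implied by the authors' bounds over all libraries. RSM23 (1353 bases) had 18.9 FPKM, with 1650 implied fragments. Levels and ranks between genes of unlike length are therefore given with this limit. The mean over 23 libraries had a median of 11.9 FPKM over the members, beside 14.4 FPKM over all 6560 genes tested. It was below 10 FPKM for 28 members, from 10 to 50 for 30 and above 50 for 7. The median was 10.4 FPKM for the large subunit and 14.9 FPKM for the small subunit.

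The 6 highest means belonged to MRPL37 (mL54 of the large subunit, 182 FPKM), RSM27 (mS33 of the small subunit, 149 FPKM), MRPS17 (uS17m, 117 FPKM), MRP20 (uL23m, a family that lines the exit of the peptide tunnel in bacterial ribosomes, 90.5 FPKM), MRP10 (mS37, 74.4 FPKM) and MRPS16 (bS16m, 50.3 FPKM). The 6 lowest were RSM26 (mS42, 1.73 FPKM), MRPL7 (uL5m, 2.46 FPKM), MRPL35 (mL38, 2.57 FPKM), MRPL11 (uL10m, 3.27 FPKM), MRP21 (bS21m, 3.53 FPKM) and MRPL49 (bL21m, 3.73 FPKM). Proteins that take part in the same particle thus had deposited FPKM that spanned about 2 orders of magnitude, with the limit on gene length given above. Counting error is large for most of them. The authors' bounds imply 970 to 3254 fragments per library over all members together, and a median per member of 1.99 fragments at 7.5 h, the thinnest library, and 30.0 at 4.75 h, the deepest. At 0 FPKM in some library were 18 members, and 13 of the 65 were so at 7.5 h.

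The levels of the members lay close together through the first hours and spread apart from 6.5 h. In the 18 libraries from 0 to 6 h, 46.2% to 63.1% of the members lay within 2-fold of the members' own median, beside 36.3% to 43.7% of all genes tested within 2-fold of theirs. In the 4 libraries from 6.5 to 8 h the share was 23.1% to 29.2% for the members and 28.5% to 34.6% for all genes. At 10 h it was 56.9% for the members again, and 41.5% for all genes. The interquartile range of log2(FPKM + 1) over the members was 1.28 to 1.97 up to 6 h and 2.46 to 3.09 from 6.5 to 8 h. Over all genes tested it was 2.196 to 2.59 and then 2.64 to 3.13, so it widened there too. The highest 2 members made up 13.7% to 37.4% of the members' summed FPKM up to 6 h, 42.1% to 55.1% from 6.5 to 8 h, and 14.1% at 10 h.

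**Figure D2:**
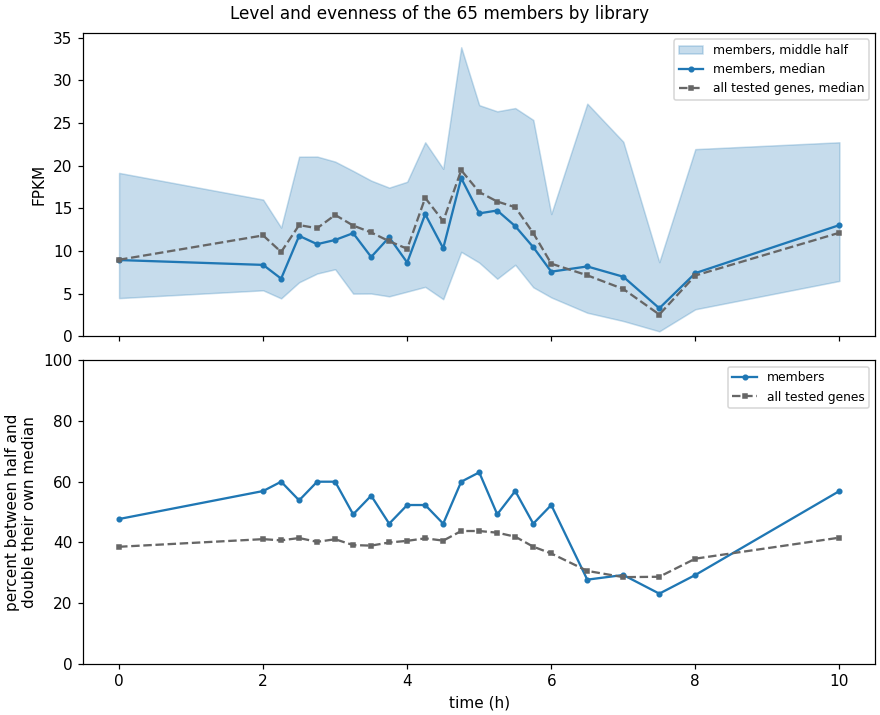
Upper panel, the median of the 65 members (blue, with the range from the lower to the upper quartile shaded) and of all tested genes (grey) in FPKM against time in h; lower panel, the percent of each within 2-fold of its own median. The members' share lies at 46.2% or above up to 6 h, at 29.2% or below from 6.5 to 8 h, and at 56.9% at 10 h.

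The median member did not leave the middle of the transcriptome. It stood at 6.76 to 18.5 FPKM up to 6 h, 3.28 to 8.19 FPKM from 6.5 to 8 h and 13.0 FPKM at 10 h. Its median percentile among all genes was 38.2 to 51.3 up to 6 h and 51.2 to 55.7 from 6.5 to 8 h. Most genes had lower FPKM in the late libraries: the median difference of all genes at 6.5-10 h against 2-3 h was -0.90 on the log2 scale. Values are therefore given as deposited and also after median-of-ratios scaling, which sets the typical gene level between libraries with factors of 0.253 to 1.80 and leaves a median of -0.17.

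The single libraries at 2 h and 0 h span the transfer to sporulation medium before copper was added, and the count of members that moved depended on the scale. The median log2 ratio of 2 h to 0 h was -0.09 over the members and 0.33 over all genes tested, and after scaling -0.46 and 0.00. Of the 35 members with at least 10 FPKM at either time, 2 were at least 2-fold higher at 2 h, where 25.1% of all such genes were, and 3 at least 2-fold lower, beside 9.41%. After scaling the counts were 0, beside 14.5%, and 10, beside 16.3%. There is 1 library at each time and no test.

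RSM25, the small-subunit protein mS23, had 29.8 FPKM at 2 h, against 13.9 FPKM at 0 h, and MRP10, a small-subunit protein of family mS37, had 69.3 FPKM at 2 h, against 33.7 FPKM at 0 h. MRPL31 (mL60 of the large subunit) had 30.9 FPKM at 2 h, against 102 FPKM at 0 h, RSM19 (uS19m) had 17.8 FPKM at 2 h, against 49.4 FPKM at 0 h, and MRPL23 (uL13m) had 6.88 FPKM at 2 h, against 17.9 FPKM at 0 h. The authors' bounds of the 2 libraries were apart for RSM25, which was higher at 2 h. They were also apart for MRPL31 and MRP4 (uS2m, 8.68 FPKM at 2 h, against 16.7 FPKM at 0 h), which were lower. No share of all genes with bounds apart is set beside these members.

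From 2 h on, the members took different courses, and most of the difference arose late. A spline of time over the 22 libraries from 2 h on (limma) was called where its fitted range was at least 1 and its adjusted p below 0.05. It called 17 members whose largest departure from the 2 h value was a rise, where the background over all genes was 31.1%, and 24 whose largest departure was a fall, beside 52% of all genes. After scaling, the counts were 28 rises, beside 38.1%, and 14 falls, beside 39.9%, with 12 rises and 13 falls shared by both scales. No share of all genes called on both scales stands beside the 12 and 13. The 6 rises with the largest fitted range were MRPS17, MRPL37, MRPL4 (uL29m), RSM27, MRP49 (mL61) and RSM19. A rise in this sense can be followed by a fall: the fitted curve of RSM27 was highest at 4.65 h and lowest at 7.90 h, and those of MRPL4 and RSM19 had the same order. These 3 were not called after scaling (adjusted p in limma of 0.092 for RSM27, 0.069 for MRPL4 and 0.56 for RSM19), while MRPS17, MRPL37 and MRP49 were. As deposited, the call was lost for RSM27 without the 2.25 or 10 h library, for MRPL4 without the 2, 2.25 or 8 h library, and for MRP49 without the 2, 2.25, 3.75 or 6.5 h library. For RSM19 it was lost without the 2, 2.25, 4.75, 5, 7, 7.5 or 10 h library. The 6 falls with the largest fitted range were MRPL23, MRP13 (mS44), MRPL44 (mL53), MRPL32 (bL32m), MRPL28 (mL40) and MRPL6 (uL6m). A fall in this sense need not be a steady decline or last to the end. The fitted curve of MRPL6 was lowest at 7.05 h and highest at 10 h, where its value was 17.1 FPKM. That of MRPL32 was highest at 5.25 h, and those of MRPL23, MRP13, MRPL44 and MRPL28 at 4.45 or 4.50 h. All 6 were called falls after scaling too, and of their calls as deposited only that of MRPL32 was lost when 1 library, the 10 h one, was left out.

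Between the early windows no member was called by limma. For 3.25-4.5 h against 2-3 h, 0 members were higher, beside 0.0762% of all genes, and 0 lower, beside 0.152%; 2 members had an unadjusted p under 0.05. For 4.75-6 h against 3.25-4.5 h, 0 were higher, beside 3.22%, and 0 lower, beside 0.168%. Here 12 members had an unadjusted p under 0.05, and the log2 difference was above 0 in 53 of the 65, with a median of 0.31. The counts by unadjusted p and by sign have no share over all genes beside them. They are from values as deposited, which also carry the scale of each library. After scaling, the first pair of windows gave 0 higher, beside 0.442%, and 0 lower, beside 0.488%, and the second pair 0 higher, beside 1.11%, and 0 lower, beside 0.442%.

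For 6.5-10 h against 4.75-6 h, 1 member was called higher, beside 4.09% of all genes, and 23 lower, beside 43.8%. After scaling, 18 were higher, beside 15.7%, and 6 lower, beside 17.1%. The median log2 difference was -0.82 for the members and -0.99 for all genes as deposited, and 0.02 for the members and -0.06 for all genes after scaling. MRPS17 was the member called higher on both scales. MRP13, MRP7 (bL27m, whose bacterial relative reaches the peptidyl transferase centre), MRPL23, MRPL3 (mL44), MRPL40 (uL24m) and MRPL44 were called lower on both. These members too have no share of all genes called on both scales beside them.

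Over the whole course, 6.5-10 h against 2-3 h, 8 members were called higher, beside 10.4% of all genes, and 16 lower, beside 41.1%. After scaling, 20 were higher, beside 19.6%, and 9 lower, beside 22.9%. The 8 members called higher as deposited were all called higher after scaling, the 9 called lower after scaling were all called lower as deposited, and no member was called in opposite directions. Beside the 8 and 9 called on both scales there is no share of all genes called on both. The median log2 difference was -0.59 for the members and -0.90 for all genes as deposited, and 0.30 and -0.17 after scaling. By subunit, 7 of 37 large-subunit and 1 of 27 small-subunit members were higher as deposited, and 11 of 37 and 8 of 27 after scaling. Lower were 10 large-subunit and 6 small-subunit members as deposited, and 6 and 3 after scaling. No test of the difference between the subunits was made.

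**Figure D3:**
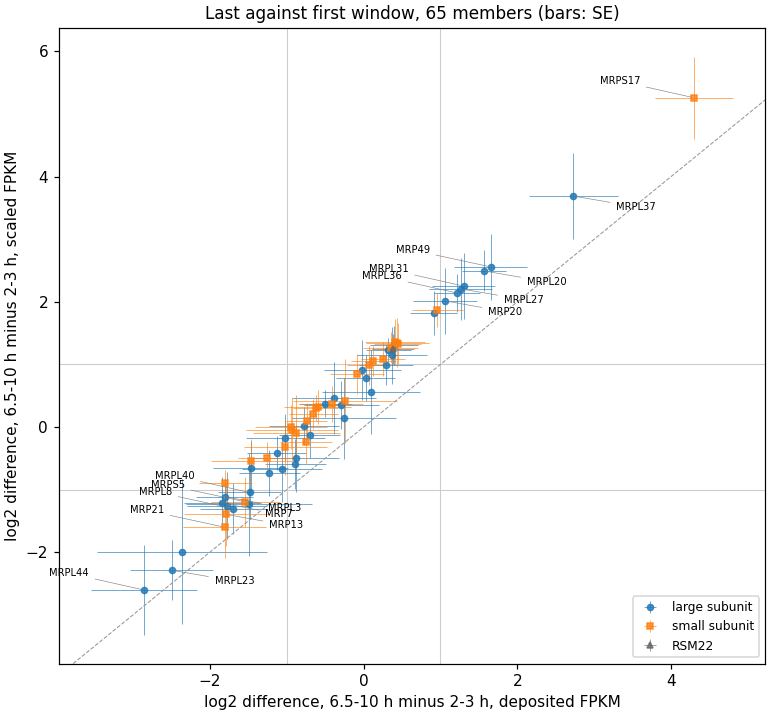
Difference in log2(FPKM + 1) between 6.5-10 h and 2-3 h for each of the 65 members, as deposited (horizontal axis) and after median-of-ratios scaling (vertical axis), with standard errors; the dashed line marks equal values and grey lines mark differences of 1. The named members are the 8 called higher and the 9 called lower on both scales, with MRPS17 at 4.30 and 5.26.

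The 8 members that were higher on both scales were MRPS17 of the small subunit and MRPL37, MRP20, MRPL20, MRPL27, MRPL31, MRPL36 and MRP49 of the large subunit. Of these, MRPS17, MRP20 and MRPL36 have family names shared with bacteria and the other 5 are mitochondria-specific.

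MRPS17, a protein whose bacterial relative binds the small-subunit rRNA early in assembly, had 504, 749, 349, 418 and 76.2 FPKM at 6.5, 7, 7.5, 8 and 10 h, against 11.1, 9.17, 20.7, 22 and 22.3 FPKM at 2, 2.25, 2.5, 2.75 and 3 h. All 5 late libraries lay above all 5 early ones. The log2 difference was 4.30 ± 0.51 (SE), with an adjusted p of 1.3e-06 in limma, and 5.26 ± 0.66 after scaling. Its level was already 133 FPKM at 6 h. The highest value stood at 7 h, and 10 h was the lowest of the late libraries.

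MRPL37 had 878, 750, 291, 273 and 77.2 FPKM at the 5 late times, against 21.8, 24.0, 90.3, 67.5 and 89.2 FPKM at the 5 early times. The 10 h library lay within the early range and the other 4 above it. The log2 difference was 2.73 ± 0.58 (SE), with an adjusted p of 0.00052 in limma, and 3.69 ± 0.69 after scaling. At 6.5 and 7 h it and MRPS17 were the 2 highest members.

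MRP20 had 296, 282, 95.7, 92.2 and 37.9 FPKM at the late times, against 59.3, 48.8, 65.7, 56.3 and 64.2 FPKM at the early ones. Its 10 h value was below all 5 early values, and the other 4 were above them. The log2 difference of 1.06 ± 0.42 (SE) had an adjusted p of 0.035 in limma, and the call was lost when the 2, 2.25, 2.75, 6.5 or 7 h library was left out, with an adjusted p of up to 0.12. After scaling the difference was 2.02 ± 0.52 (adjusted p 0.0032 in limma).

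MRPL20 (mL58) had 25.7, 41.3, 24.4, 26.9 and 16.5 FPKM at the late times, against 6.64, 5.68, 10.1, 11.1 and 7.99 FPKM at the early ones, with no overlap. The log2 difference was 1.56 ± 0.28 (SE, adjusted p 0.00012 in limma). MRPL36 (bL31m) had 31.6, 30.5, 18.9, 29.3 and 26.4 FPKM late, against 13.7, 11.3, 11.8, 7.35 and 12.1 FPKM early, again with no overlap. Its 10 h value was still above the early range. MRP49 also had every late value, 10.7 FPKM or more, above every early one, 7.92 FPKM or less. These 3 and MRPS17 were the 4 members whose deposited values in the 2 windows were fully apart upward. After scaling there were 13 such members. The share of all genes with windows fully apart was not counted, so 4 and 13 have no background here.

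MRPL27 (mL41) had a log2 difference of 1.26 ± 0.41 (SE, adjusted p 0.013 in limma), with 15.2 to 50.2 FPKM late and 7.16 to 21.1 FPKM early. MRPL31 had a difference of 1.30 ± 0.41 (SE, adjusted p 0.01 in limma), with 31.3 to 133 FPKM late and 15.9 to 39.4 FPKM early. In both the 10 h value was the lowest late one and lay within the early range. MRPL31 lies 273 bases upstream of HSK3 on the same strand, a gene of the kinetochore Dam1 complex, which stood at 282 FPKM at 6.5 h, against 25.1 FPKM at 2 h. Whether reads of one gene were counted in the other was not tested.

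**Figure D4:**
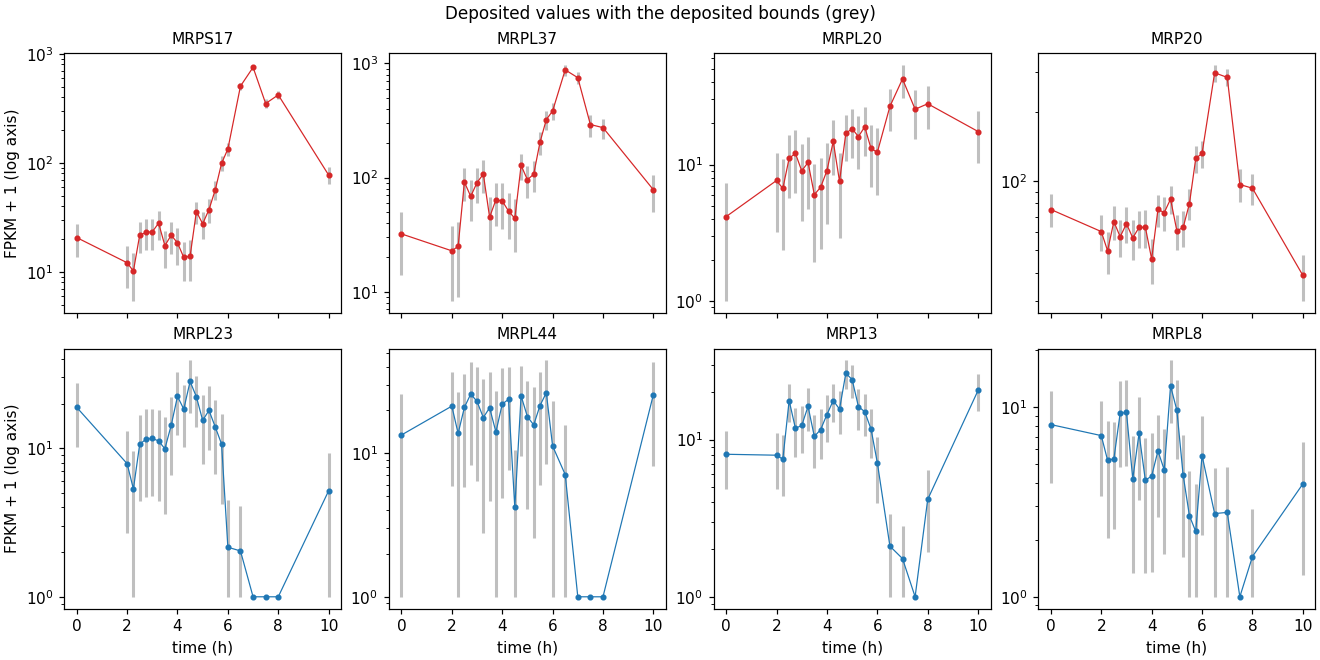
Deposited FPKM + 1 on a log axis against time in h for 4 members called higher (red, upper row) and 4 called lower (blue, lower row) at 6.5-10 h than at 2-3 h on both scales, with the authors' lower and upper bounds in grey; vertical ranges differ between panels. MRPS17 is highest at 7 h (749 FPKM) and MRPL37 at 6.5 h (878 FPKM), while MRPL23 and MRPL44 are listed at 0 at 7, 7.5 and 8 h.

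The 9 members lower on both scales were MRPL3, MRPL8 (bL17m), MRPL23, MRPL40, MRPL44 and MRP7 of the large subunit and MRP13, MRP21 and MRPS5 (uS5m) of the small subunit. None of their calls was lost when any 1 of the 22 libraries was left out. They are members of low to moderate level, with means over the course of 3.53 to 15.3 FPKM.

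MRPL23, whose bacterial relative is an early rRNA-binding protein of the large subunit, had 1.04, 0, 0, 0 and 4.18 FPKM at 6.5, 7, 7.5, 8 and 10 h, against 6.88, 4.32, 9.63, 10.5 and 10.6 FPKM at 2, 2.25, 2.5, 2.75 and 3 h. Every late library was below every early one. The authors' bounds overlapped, with 0 to 8.35 FPKM at 10 h and 0 to 8.65 FPKM at 2.25 h. Before that it had climbed to 27.2 FPKM at 4.5 h, and it was at 1.16 FPKM by 6 h. The log2 difference between the windows was -2.49 ± 0.54 (SE), with an adjusted p of 0.00064 in limma, and -2.29 ± 0.48 after scaling.

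MRPL44 had 6.10, 0, 0, 0 and 24.6 FPKM at the late times, against 20.3, 12.7, 19.9, 24.8 and 22 FPKM at the early ones. The 10 h library was as high as the early ones and the other 4 were below them. The log2 difference was -2.86 ± 0.69 (SE, adjusted p 0.0016 in limma), and -2.60 ± 0.71 after scaling. Its authors' bounds imply only 116 fragments over all 23 libraries, so its exact level at a single time is loosely fixed.

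MRP13 had 1.10, 0.749, 0, 3.16 and 19.6 FPKM late, against 6.95, 6.50, 16.7, 10.8 and 11.3 FPKM early, and MRP7 had 4.92, 2.68, 0.429, 0.708 and 15.2 FPKM late, against 6.16 to 19.99 FPKM early. In both, the 4 libraries from 6.5 to 8 h lay below all the early ones and the 10 h library did not. MRPL3 had an adjusted p of 0.00042 in limma as deposited, with 1.85, 1.26, 1.21, 1.67 and 7.46 FPKM late, against 14.1, 6.12, 9.75, 13.2 and 9.19 FPKM early. MRPL40, MRPL8, MRPS5 and MRP21 had log2 differences of -1.48, -1.69, -1.54 and -1.81. Of the 9, MRPL8, MRPL23 and MRP21 were fully below their early values, and after scaling MRPL8 and MRPL23 were. In each of these members the authors' bounds of some late and early libraries overlapped. MRP21 had 3 implied fragments at 2.25 h and 1.99 at 10 h. The share of all genes with windows fully apart downward was not counted.

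**Figure D5:**
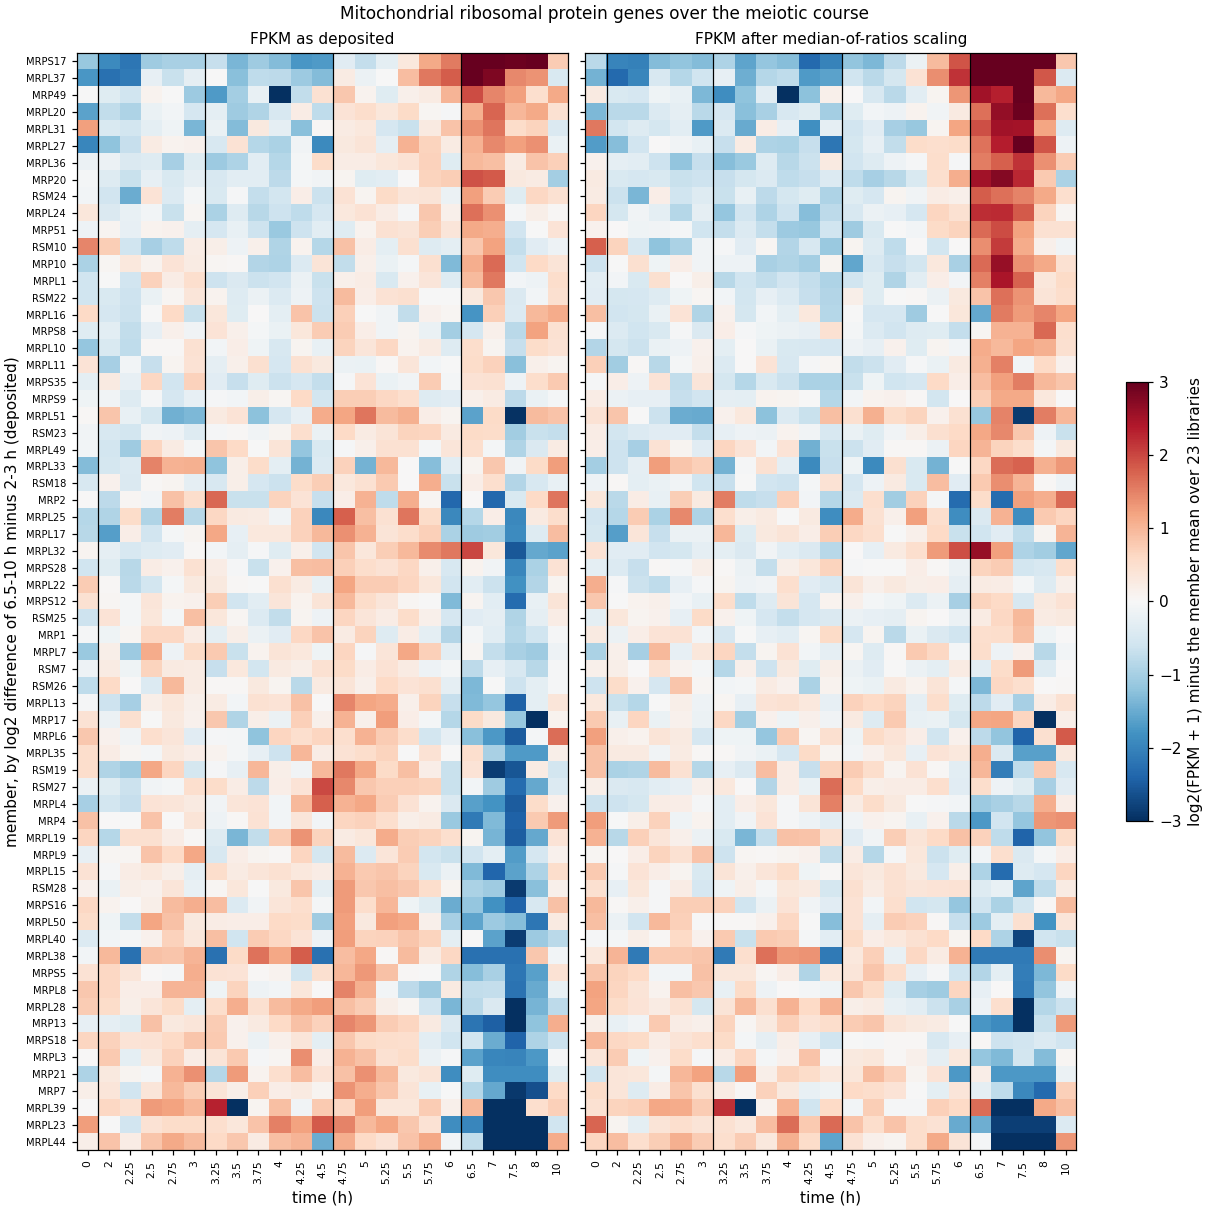
Log2(FPKM + 1) minus each member's mean over the 23 libraries, for the 65 members (rows, by the difference of 6.5-10 h and 2-3 h as deposited) against time in h, as deposited (left) and after median-of-ratios scaling (right); black lines separate 0 h and the 4 windows, and colours stop at 3 in either direction. At 6.5 to 8 h the top rows are red and the bottom rows mostly blue in both panels, while the rows between them change colour with the scale.

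The 7 other members called lower as deposited, MRPL9 (uL3m), MRPL15 (mL57), MRPL28, MRPL50 (bL9m), MRPS16, MRPS18 (uS11m) and RSM28 (mS46), were not called after scaling. The 12 members called higher after scaling alone were MRP10, MRP51 (bS1m), MRPL1 (uL1m), MRPL10 (uL15m), MRPL16 (uL16m), MRPL24 (bL28m), MRPS8 (uS8m), MRPS9 (uS9m), MRPS35 (mS45), RSM10 (uS10m), RSM22 and RSM24 (mS35). For these 19 the call therefore depends on how the libraries are set to each other. Of the 7, the call was also lost for MRPS16 without the 2.75, 3, 7 or 7.5 h library, for MRPL9 without the 3 or 7.5 h library, for RSM28 without the 7.5 h library and for MRPL15 without the 7 h library. MRPS18 and MRPL28 had all 5 late values below all 5 early ones as deposited, and MRPS18 did after scaling too.

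How alike the members' courses were depended on the scale. Over the 23 libraries the Pearson correlation of log2(FPKM + 1) had a median of 0.27 over the 2080 pairs of members as deposited, with 29.0% of pairs below 0, and of 0.03 after scaling, with 47.3% below 0. A correlation of at least 0.5 with the median of the other members was reached by 36 of the 65 as deposited and 19 after scaling, and 12 and 27 were below 0. Neither these counts nor the values over pairs have a share over all genes beside them, so they are no result about the members. Those as deposited also carry the scale of each library. After scaling, the 4 closest to the others were RSM22 (0.75), RSM24 (0.74), MRPS17 (0.74) and MRPS9 (0.73). As deposited the same 4 had 0.46, 0.22, -0.46 and 0.70, and MRPS17 was the lowest of all members. The 6 farthest after scaling were MRPL23 (-0.60), MRP21 (-0.59), MRPL3 (-0.59), MRPL44 (-0.54), MRPL28 (-0.54) and MRP13 (-0.53). As deposited their signs turned, to 0.69, 0.64, 0.72, 0.65, 0.65 and 0.85. With NDT80, the transcription factor of the middle meiotic genes, 5 members had a correlation of 0.70 or more as deposited and 13 after scaling. The first 3 were the same on both scales: MRPL37 (0.86 as deposited and 0.87 scaled), MRPS17 (0.81 and 0.84) and MRPL20 (0.80 and 0.81). The counts of 5 and 13 have no share over all genes beside them, so they are no result about the members. The level of NDT80 itself was 1.18 FPKM at 2 h, peaked with 438 FPKM at 6.5 h and was back to 45.6 FPKM by 10 h. All these values share the same libraries and depth and are descriptions. After scaling, the 10 genes outside the rule most like the members' median were CIC1, RPB2, ELP2, HRQ1, RGR1, SEY1, HSP31, NAN1, POM152 and RRG7, with correlations of 0.80 to 0.84.

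The upstream letters did not separate the members from other genes. The 300-base promoter window, 250 bases before to 50 after the start of the coding region, held CCAAT, the core letters of the HAP complex that activates respiratory genes, on either strand in 27 of 65 members (41.5%) and 43.3% of all genes. Ndt80 binds the middle sporulation element, which was searched on either strand only after the late members were known. The first form, GNCACAAA, stood in 3 members (4.62%), in none of the 8 or the 20 called higher, and in 4.32% of all genes. After that result, and after the letters of the MRPL37 and MRPS17 promoters had been looked at, the search was widened to a core: CACAAAA and also CACAAAT, and with G as its second letter CGCAAAA and also CGCAAAT. Its counts are therefore no support for a link. The core stood in 15 members (23.1%) and 19.6% of all genes. It stood in 4 of the 8 members higher on both scales and 7 of the 20 higher after scaling. Of those lower, it stood in 2 of the 16 as deposited and 2 of the 9 on both scales. The only match lay after the start codon in MRPL36, RSM22 and RSM24 of those higher and in MRPL23 of those lower. The windows of the 2 members with the largest late increase are shown with the core letters in capitals; no binding was measured there.

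MRPL37, chrII:741049-741348, plus strand: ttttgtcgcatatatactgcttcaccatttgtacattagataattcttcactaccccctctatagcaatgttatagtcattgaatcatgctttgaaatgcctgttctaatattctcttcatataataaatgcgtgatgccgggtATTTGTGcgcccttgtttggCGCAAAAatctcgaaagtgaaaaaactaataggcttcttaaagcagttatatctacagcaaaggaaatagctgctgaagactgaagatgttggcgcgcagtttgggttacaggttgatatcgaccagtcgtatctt
MRPS17, chrXIII:636955-637254, minus strand: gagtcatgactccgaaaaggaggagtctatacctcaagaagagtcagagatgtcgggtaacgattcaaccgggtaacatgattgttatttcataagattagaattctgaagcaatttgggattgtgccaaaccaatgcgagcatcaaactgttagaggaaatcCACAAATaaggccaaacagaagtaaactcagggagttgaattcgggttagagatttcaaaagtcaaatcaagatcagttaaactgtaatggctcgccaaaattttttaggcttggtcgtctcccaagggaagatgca

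In both windows the matches lie before the start codon, which opens the last 50 bases. Only the neighbour on the upstream side of each of these members is given here, at 6.5 and 2 h. Whether other neighbours share their late levels was not tested. GCV2, divergent from MRPS17 across 495 bases, had 2.27 FPKM at 6.5 h, against 133 FPKM at 2 h, and REI1, upstream of MRPL37 by 276 bases, had 3.71 FPKM at 6.5 h, against 2.08 FPKM at 2 h. Since 64 of the 65 members carry the downstream TGTANATA letters, their presence cannot be set against the direction of change.

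The rest of the mitochondrial gene expression system was compared by the counts from the same fit of 6.5-10 h against 2-3 h. Over all genes tested, 10.4% were called higher and 41.1% lower as deposited, and 19.6% and 22.9% after scaling. These shares are the background of each count. Of the 13 mitoribosomal proteins outside the naming rule, 2 were higher and 4 lower as deposited, and 3 and 2 after scaling. MRX14, a large-subunit protein, and YML6 (uL4m) were higher on both scales, with log2 differences of 2.32 and 1.65 as deposited, and SWS2 (uS13m) and FYV4 were lower on both, at -2.27 and -1.60. MRX14 and the member MRPL1 converge on each other. Both directions were called here as among the 65, and as among all genes tested.

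Of the 12 mitochondrial aminoacyl-tRNA synthetases, which charge the organelle's tRNAs and all carry the downstream letters, 0 were higher and 7 lower (58.3%) as deposited, and 0 and 3 (25%) after scaling. The 3 lower on both scales were MSE1 (-1.71), MSK1 (-1.81) and MST1 (-1.52, deposited log2 differences). Of the 12 translation factors, 1 was higher and 4 lower as deposited, and 3 and 4 after scaling. TUF1, the mitochondrial elongation factor Tu, was higher on both (1.22), and MEF2, a factor of the ribosome recycling step, was lower on both (-3.0). Of the 8 assembly and rRNA modification genes, 0 were higher and 4 lower as deposited, and 0 and 1 after scaling, that one being MTG2 (-1.91), a GTPase of large-subunit assembly. Of 15 translational activators tested, 0 were higher and 6 lower as deposited, and 1 and 2 after scaling, with MBA1, a ribosome receptor of the inner membrane, lower on both (-2.58).

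The nuclear genes of the respiratory chain and ATP synthase, whose products assemble with the proteins the mitochondrial ribosome makes, had no member called higher as deposited. Of 29, 0 were higher and 20 lower (69.0%, beside 41.1% of all genes) as deposited, and 1 higher and 11 lower (37.9%, beside 22.9%) after scaling. Their median log2 difference was -1.48 as deposited and -0.78 after scaling, beside -0.59 and 0.30 for the members and -0.90 and -0.17 for all genes. ATP2, the catalytic beta subunit of the ATP synthase, was lower on both scales (-2.90 as deposited), as was COX13 (-2.82), a subunit of cytochrome oxidase. The difference between these genes and the members was not tested. Among the regulators, HAP4, the activating subunit of the HAP complex, was higher on both scales (2.01 as deposited, adjusted p 0.00027 in limma), and PUF3 was called on neither (-0.67, adjusted p 0.11 in limma).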

How the data were processed

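Total RNA was made into random-hexamer libraries with the NuGEN Ovation system, per the labels' protocols, and 1 library per time was sequenced. For each library the authors deposited a table of gene-level FPKM values with confidence bounds, per the file headers. Bowtie and Cufflinks 2.2.1 with the builds R64 and sacCer3 are named in the submitters' processing notes; for annotation, strand setting and filters, nothing was given in the sources used here, and sense reads could not be separated from antisense ones. Of 7132 rows, 11 with too many fragments and 254 without a gene name (at most 0.0161% of implied fragments) were left out. Another row overlaps at least 40% of MRPL51, RSM7 and MRPL38.

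Values were analysed as log2(FPKM + 1), which understates changes of low genes, over 6560 genes whose mean reached 1 FPKM; 307 were not tested. Tests used limma 3.58.1 in R 4.3.3 (trend, two-sided, Benjamini-Hochberg over all genes tested): a natural spline with 4 degrees of freedom, and window contrasts called at an adjusted p under 0.05 and a log2 difference of at least 1. They were first run on simulated data, drawn independently for each library around a constant mean per gene, with known changes in the last window. Such data hold no scale between libraries and no likeness of neighbouring times, so they cannot show how the tests handle either. Depth was read from the deposited bounds, with U the upper bound and F the FPKM, as the square of 2F / (U - F), assuming bounds of 2 standard errors; this covers counting error only. Scaling was by median of ratios over 5046 genes above 0 in every library. Promoter and downstream windows come from the RefSeq R64 genome and annotation, the build of the files. Alternatives were other pseudocounts, filters, scalings, splines and window borders, and each library left out.

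Named members are the 6 highest and 6 lowest by mean, up to 6 called per comparison and direction, the 5 largest and smallest ratios of 2 h to 0 h, the 6 least and 4 most like the others, and up to 4 called genes of each other list; further members named in lists of calls, and neighbouring genes, were chosen after their values were seen. In all, 5 motifs were searched, 2 planned and 3 added after values or sequences had been seen. The members and lists were chosen with earlier results of these data known.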

Additional observations from a re-analysis of the deposited data

How the results depend on the processing

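With median-of-ratios scaling the spline called 28 rises and 14 falls, 6.5-10 h against 4.75-6 h gave 18 higher and 6 lower, 6.5-10 h against 2-3 h gave 20 and 9, and the median log2 ratio of 2 h to 0 h was -0.46. With quantile normalisation the same counts were 28, 11, 16, 4, 19 and 5. A pseudocount of 5 gave 14 lower against 4.75-6 h and 7 lower against 2-3 h, and a median ratio of -0.059; a pseudocount of 0.1 gave a median ratio of -0.10, and leaving out the overlapping members one of -0.19. A spline of 3 degrees of freedom called 10 falls, and borders 1 library later gave 3 members higher at 4.75-6 h than at 3.25-4.5 h. Leaving out 1 library gave 11 to 18 rises, the lowest without the 2.25 h library, and 18 to 30 falls. It gave 0 to 2 members higher at 4.75-6 h than at 3.25-4.5 h, and 1 to 2 higher and 16 to 31 lower at 6.5-10 h than at 4.75-6 h. Against 2-3 h it gave 7 to 10 higher and 13 to 23 lower. Leaving out the 7.5 h and 10 h libraries together, a choice made after seeing the data, gave 2 higher at 4.75-6 h than at 3.25-4.5 h and 6 higher at 6.5-10 h than at 4.75-6 h. Among 48 results for single members, 73 of the alternatives lost the call and 205 kept it; MRPL17 reversed under quantile normalisation, with a log2 difference of 0.0075 between 6.5-10 h and 4.75-6 h. The cause of these changes was not tested. No paired analysis was possible because each time has 1 library and no replicate numbers are shared. With a median of 1.99 implied fragments per member at 7.5 h, a member listed at 0 there was not detectable at this depth, which does not show that it is absent.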

Other observations

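The values given here are as deposited, so they also carry the scale of each library. RSM27, the small-subunit protein mS33, and MRPL4, the large-subunit protein uL29m, were both highest at 4.5 h. RSM27 had 163, 486 and 334 FPKM at 4.25, 4.5 and 4.75 h, and MRPL4 had 38.7, 69.7 and 40.8 FPKM at the same times. MRPL32, the large-subunit protein bL32m, had 55.6, 74.6, 22.8, 2.24, 5.56 and 5.19 FPKM at 6, 6.5, 7, 7.5, 8 and 10 h. CDC10, a septin gene that diverges from MRPL32 across 271 bases, had 445, 412 and 36.6 FPKM at 6.5, 7 and 10 h.

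MRP35 is listed by the authors under its systematic name YNL122C and so lies outside the naming rule. Its level went up and down, with 8.34, 32.1, 8.44, 39.8 and 8.62 FPKM at 0, 2.25, 3, 3.5 and 4.5 h. Later it had 28.7, 2.22 and 20.7 FPKM at 6.5, 8 and 10 h. HAP4 had 112, 11.7 and 168 FPKM at 0, 2.75 and 4.75 h.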
